A study of Mus musculus with 12 samples.

Results

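The comparison described here is that of TRIM33-deficient with wild-type (WT) blood monocytes in 6 of the 12 expression arrays of a mouse study, those in which genes of mature monocytes were high. The 6 arrays were chosen by measured values: the 12 arrays formed 2 sets when they were grouped by the values of all features, without use of genotype, and the set with high Ace, Treml4 and Cx3cr1 was kept. It holds 3 TRIM33 arrays, titled 178, TRIM33_mix_1 and TRIM33_mix_2 and called TRIM33 replicates 1, 2 and 3, and 3 WT arrays, titled CTL9, CTL_mix_1 and CTL_mix_2 and called WT replicates 4, 5 and 6. All animals were C57BL/6 LyzCre mice of 6 to 8 weeks by their labels, and no treatment of the animals is named. The genotype label reads TRIM33 in one group and WT in the other, and the series title speaks of TRIM33 deficiency in mature myeloid cells, so TRIM33 is used here for the deficient group. LyzCre places the Cre recombinase under the control of the lysozyme M gene, which is active in monocytes, macrophages and granulocytes, so that a floxed gene is lost from those cells and not from the whole animal. Whether the WT mice carried the recombinase as well is not given beyond the shared strain label. The source names and the design text describe inflammatory blood monocytes sorted as CD11b+ CD115+ Ly6C high, whereas the treatment text of the same labels describes a sort of CD4 T cells.

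TRIM33, also named TIF1-gamma, is a nuclear protein of the tripartite motif family that binds modified histones, can repress transcription and can attach ubiquitin to other proteins. It is best known as a partner and regulator of SMAD proteins in TGF-beta and BMP signalling. Blood monocytes leave the marrow as Ly6C-high cells, which enter inflamed tissue, and part of them mature into Ly6C-low cells that patrol vessel walls and express Ace, Treml4 and Cx3cr1. The study's title concerns the resolution of inflammation in the colon. The question of the comparison is which genes differ between the genotypes within the set of arrays with high mature monocyte genes. The arrays of that set were not all alike in those genes, as their values below show.

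4 promoters are shown first, because they belong to the gene groups on which the results turn, the interferon-response genes and the stefins. Each is the 250 bases before the transcription start in RefSeq, build GRCm38.p6, 5' to 3' on the gene's strand. In Oas1g (chr5:120887614-120887863, minus strand) and Isg15 (chr4:156200819-156201068, minus strand), capitals mark overlapping matches to the core of the interferon-stimulated response element, searched on both strands as GAAA followed, after any 2 bases, by a second GAAA.

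Oas1g: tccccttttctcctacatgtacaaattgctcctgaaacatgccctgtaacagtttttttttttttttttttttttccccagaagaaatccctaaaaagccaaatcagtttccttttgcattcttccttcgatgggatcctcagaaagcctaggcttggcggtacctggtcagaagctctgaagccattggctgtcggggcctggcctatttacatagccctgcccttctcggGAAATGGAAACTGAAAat

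Isg15: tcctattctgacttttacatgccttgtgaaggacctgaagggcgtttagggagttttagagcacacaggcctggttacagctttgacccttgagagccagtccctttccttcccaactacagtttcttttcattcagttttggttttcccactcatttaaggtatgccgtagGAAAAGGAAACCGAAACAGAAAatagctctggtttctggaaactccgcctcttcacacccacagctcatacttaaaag

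In Stfa1 (chr16:36276898-36277147, plus strand) and Stfa2l1 (chr16:36156561-36156810, plus strand), which encode stefin A proteins, capitals mark the longest run of bases that the pair of promoters shares, 21 bases.

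Stfa1: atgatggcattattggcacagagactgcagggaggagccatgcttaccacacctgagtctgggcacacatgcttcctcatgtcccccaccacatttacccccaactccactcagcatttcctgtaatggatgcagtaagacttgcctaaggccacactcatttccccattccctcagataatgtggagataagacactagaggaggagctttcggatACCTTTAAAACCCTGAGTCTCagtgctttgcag

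Stfa2l1: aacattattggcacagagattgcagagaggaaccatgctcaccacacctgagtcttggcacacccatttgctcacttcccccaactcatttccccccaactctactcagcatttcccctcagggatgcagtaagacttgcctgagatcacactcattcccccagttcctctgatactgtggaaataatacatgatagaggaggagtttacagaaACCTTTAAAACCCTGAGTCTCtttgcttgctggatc

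The stefin promoters were identical at 208 of 257 columns of their alignment, 80.9%. Of the promoters of the 22324 genes described, 16738 had a sequence in the table, and 3.9% of those held that core on either strand within the 300 bases from 250 before to 50 after the start.

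The 6 arrays matched the name of mature monocytes in part. Ace, which encodes angiotensin-converting enzyme, lay between 8.25 and 9.58 on them and between 4.72 and 5.61 on the other 6 arrays, in log2 units. Treml4 lay between 8.68 and 9.85 against 5.75 to 6.75, and Cx3cr1, the fractalkine receptor gene, between 9.66 and 10.7 against 9.04 to 9.70. The lowest Cx3cr1 value, on TRIM33 replicate 2, overlapped the other set. Of other marks of Ly6C-low cells, Cd300e overlapped between the sets, and Spn, at 8.23 to 9.0 against 8.91 to 9.3, was mostly lower here, against the name. Ly6c2, the mark of Ly6C-high cells, was 12.3 to 12.5 on these arrays and 12.2 to 12.4 on the others. The proliferation gene Top2a stood at 3.01 to 4.78 against 9.99 to 10.1, and Mpo, the myeloperoxidase gene of marrow precursors, at 4.74 to 5.15 against 10.9 to 11.5. The arrays are thus described by high Ace and Treml4 and low cycling and precursor genes, with Ly6c2 high in both sets. These values chose the arrays or come from the same features, and carry no test. Pairs of the 6 arrays correlated at 0.9862 to 0.9910 over all features, pairs across the 2 sets at 0.9546 to 0.9668.

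TRIM33 replicate 2 stood apart from the other 5 in markers of other cells. The mean of 24 Ly6C-low monocyte genes was 7.18 on it and 7.67 to 7.98 on the others. The mean of 29 genes of mitosis and G2/M was 5.24 against 4.46 to 4.63, that of 23 neutrophil granule and alarmin genes was 6.53 against 5.50 to 5.91, and that of 16 MHC class II presentation genes was 7.49 against 7.91 to 8.14. S100a8, an alarmin abundant in neutrophils, read 10.33 on TRIM33 replicate 2 and 6.88 to 8.19 elsewhere. Of the other neutrophil markers, Mmp8 read 10.97 on it and 10.04 to 10.42 elsewhere, and Retnlg 5.03 and 3.16 to 3.88, while Ngp, Ltf, Camp and Ly6g were between 2.80 and 4.72 on all 6 arrays. Platelet genes varied within both genotypes: the mean of Pf4, Ppbp, Itga2b and Gp9 was 5.26 on TRIM33 replicate 1 and 7.12 on TRIM33 replicate 3. In bulk samples, fewer cells of a type and less RNA per cell cannot be told apart. The part of these differences in the results was not tested, and results are given with and without TRIM33 replicate 2 where they differ.

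**Figure D1:**
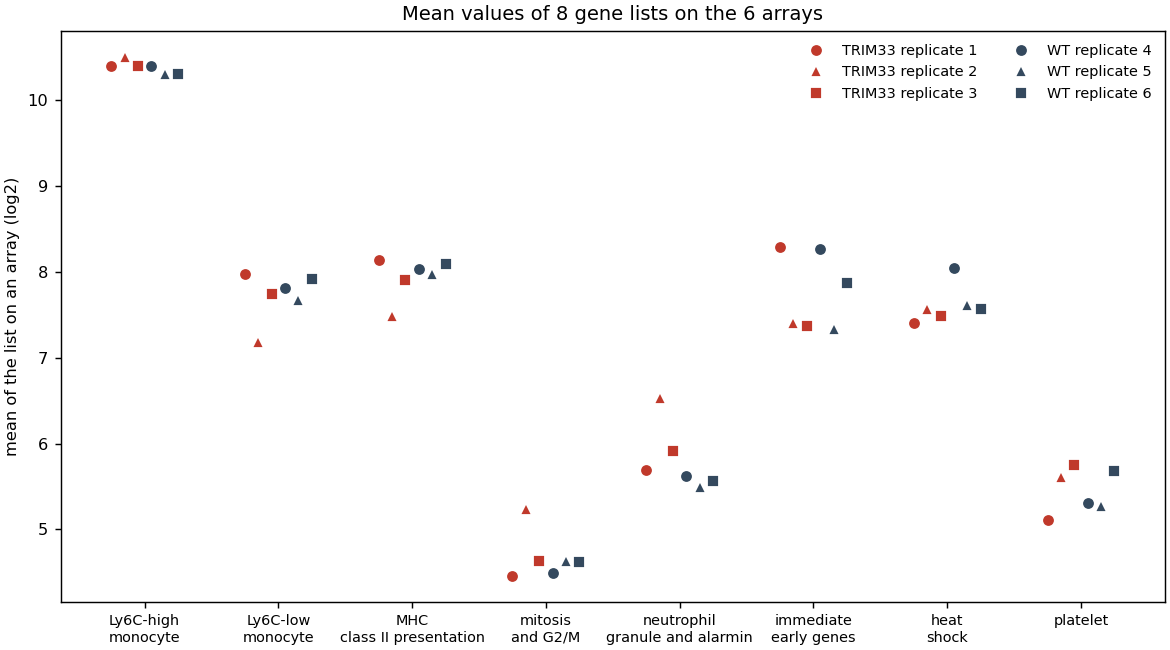
Mean deposited value (log2, y axis) of 8 gene lists (x axis) on each of the 6 arrays, TRIM33 in red and WT in dark blue, 1 symbol per array. TRIM33 replicate 2 (red triangle) is lowest for Ly6C-low and MHC class II genes, at 7.18 and 7.49, and highest for mitosis and neutrophil genes, at 5.24 and 6.53.

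Trim33 itself was lower on each TRIM33 array. It read 6.23, 6.12 and 6.06 on TRIM33 replicates 1, 2 and 3, and 6.93, 6.92 and 6.93 on WT replicates 4, 5 and 6, so the groups did not overlap and the genotype labels held. The difference of -0.79 (SE 0.108, log2, n = 3 against 3) had an adjusted p of 0.134 in limma with Benjamini-Hochberg adjustment over all 23279 genes. The exact two-sided permutation test over the 6 arrays gave p = 0.10, the smallest that 20 assignments allow. Which part of the transcript the probes read was not given in the sources used here. Its paralogs Trim24, Trim28 and Trim66 differed by 0.00, -0.16 and 0.11, all with overlapping groups. The sign of Trim24 turned with median centring, and that of Trim66 without WT replicate 6.

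Across the 22324 genes not on X or Y, 8 were higher in TRIM33 monocytes at an adjusted p below 0.05, 0.0358% of them, and 0 were lower (0.0%). At an unadjusted p below 0.05, 482 genes (2.16%) were higher and 521 (2.33%) lower. By role the 8 genes past the adjusted threshold included the stefin genes Stfa1 and Stfa2l1, the antiviral gene Oas1g and the lysozyme gene Lyz1. The rest were the receptor gene Klra17, the Wnt inhibitor gene Apcdd1, the membrane protein gene Emp1 and the centriole gene Cep83. Differences of the 8 ran from 1.76 to 4.25. The bulk of genes moved little: the median absolute difference was 0.105 and its 99th percentile 0.587. The median SE was 0.144. All 3 TRIM33 values lay above all 3 WT values for 1020 genes (4.57%), and below them for 1201 genes (5.38%). A difference above 0 was found for 47.4% of genes. Differences of at least 1 without overlap were found for 14 genes upward (0.0627%) and 7 downward (0.0314%). Without TRIM33 replicate 2, 3 genes passed (0.0129%), Apcdd1, Emp1 and Lyz1, all among the 8. Without WT replicate 6 the count was also 3, and without WT replicate 5 it was 4. When the variance of each gene was not moderated by that of the others, Apcdd1 alone passed.

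**Figure D2:**
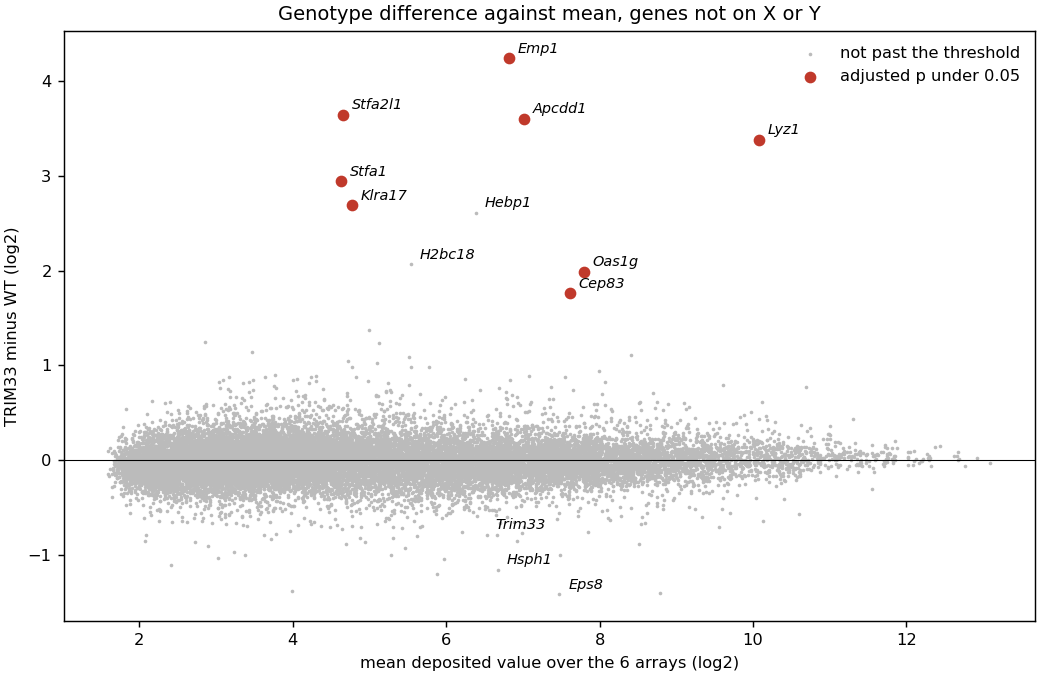
TRIM33 minus WT (log2, y axis) against the mean over the 6 arrays (log2, x axis) for each gene not on X or Y, with the 8 genes past the adjusted p of 0.05 in red and 5 others named. The 8 lie between 1.76 and 4.25, all above 0, and most genes lie near 0.

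Apcdd1, which encodes a membrane-bound inhibitor of Wnt signalling, read 8.87, 8.74 and 8.82 on the TRIM33 arrays and 5.07, 5.24 and 5.31 on the WT arrays. Each genotype was tight and the gap between them wide. The rise was 3.60 (SE 0.117, n = 3 against 3, adjusted p = 2.3e-05 in limma), a 12.2-fold difference, and 3.64 without TRIM33 replicate 2 (adjusted p = 0.000702). On the other 6 arrays it was 2.38, and the difference between the sets did not pass (adjusted p = 0.143). Among the 36 genes of the Wnt pathway list, 19 lay above 0, and Apcdd1 was the only one that passed. The median of the list was 0.00525. The receptors and mediators Lrp5 (-0.31), Dvl1 (-0.25), Tcf7l2 (-0.48) and Ctnnb1 (-0.27) had values below 0. Fzd4 (0.19), Fzd5 (0.18), Sfrp1 (0.24), Nkd2 (0.24) and Znrf3 (0.23) had values above 0, and the negative-feedback target Axin2 one of 0.02. None of them passed the test.

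Emp1, a tetraspan epithelial membrane protein gene, read 8.47, 9.17 and 9.18 on the TRIM33 arrays against 4.95, 4.67 and 4.46 on the WT arrays. Its rise of 4.25 (SE 0.217, adjusted p = 0.000441 in limma), 19.0-fold, was the largest over all genes described. On the other 6 arrays, the 3 TRIM33 arrays read 3.47, 7.22 and 7.93 and the 3 WT arrays 3.79 to 4.31, so 1 TRIM33 array of that set was at the WT level. Hebp1, which encodes a haem-binding protein, lies 5 measured genes from Emp1 on chromosome 6 in RefSeq gene order (GRCm38.p6). Genes that were not measured are not counted in such distances. Hebp1 read 6.89, 8.13 and 8.05 against 5.0, 4.81 and 5.43. Its difference of 2.61 lay just outside the threshold (SE 0.325, adjusted p = 0.0967). Gsg1, 2 measured genes from Emp1, read 4.69, 4.51 and 4.66 against 3.99, 3.75 and 3.68, a difference of 0.82 (SE 0.128, adjusted p = 0.281). Emp1 and Hebp1 were both lowest on TRIM33 replicate 1 among the TRIM33 arrays. Of the 20 nearest measured neighbours of Emp1, 4 had TRIM33 values above and 1 had them below all WT values, beside 4.57% and 5.38% of all genes described.

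Lyz1 encodes a lysozyme, a bacteriolytic enzyme, and is closely related to the lysozyme M gene that the Cre driver uses. It read 11.99, 11.46 and 11.86 on the TRIM33 arrays and 8.20, 8.24 and 8.72 on the WT arrays. The rise was 3.38 (SE 0.193, adjusted p = 0.000688 in limma), and 3.54 without TRIM33 replicate 2 (adjusted p = 0.00424). On the other 6 arrays it was 3.74. In gene order, Yeats4 lies 2 measured genes away, and read 9.31, 9.49 and 9.40 against 8.84, 8.93 and 8.81. That difference of 0.54 (SE 0.111) did not pass (adjusted p = 0.758). Of the 20 nearest measured neighbours of Lyz1, 2 had TRIM33 values above all WT values and 0 below, a share near the 9.95% of all genes described without overlap in either direction. Because Lyz1 and the lysozyme M gene are alike in sequence, a probe may read both, which was not tested.

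**Figure D3:**
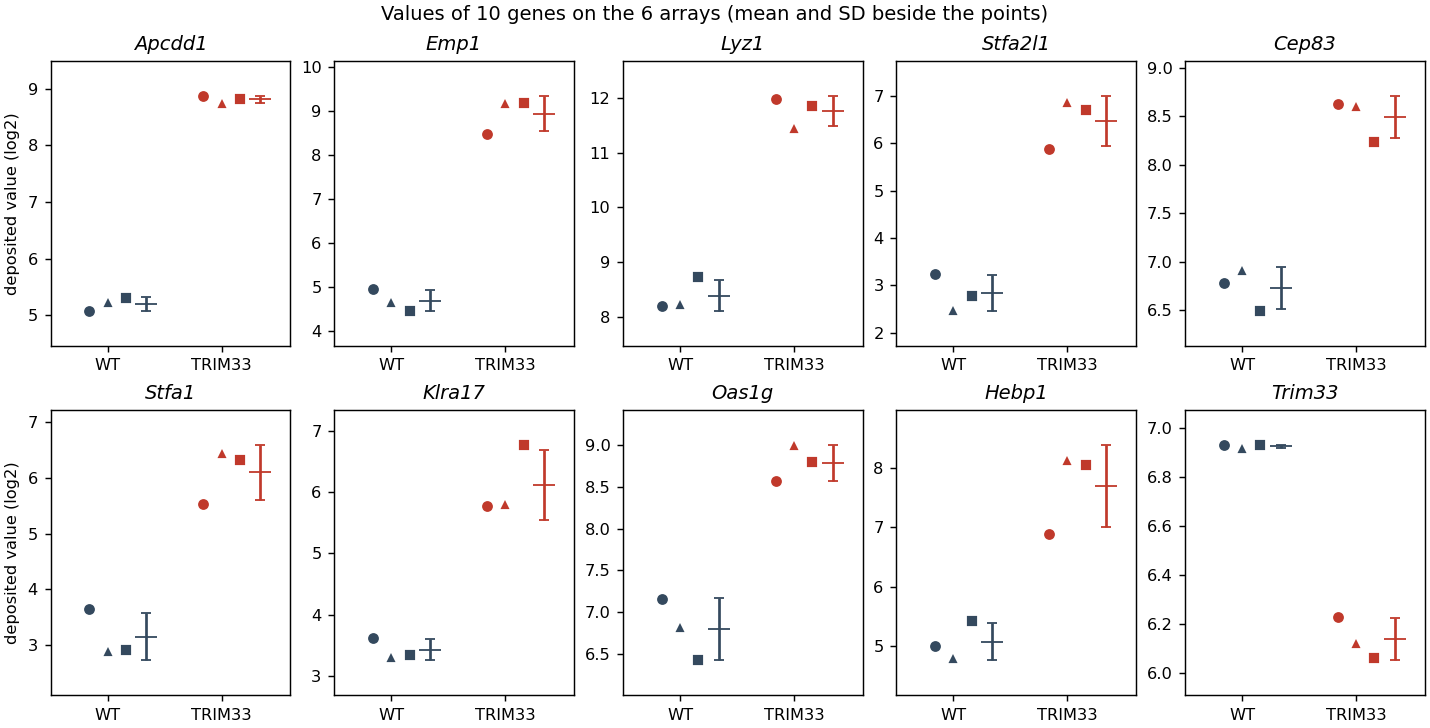
Deposited values (log2, y axis of each panel, own range) of 10 genes on the 3 WT and 3 TRIM33 arrays, 1 symbol per array, with the mean and SD (n = 3) beside the points. The genotypes do not overlap for any of the 10, and Trim33 is the 1 gene that is lower, at 6.06 to 6.23 against 6.92 to 6.93.

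Stefins inhibit cysteine proteases, among them several cathepsins, and mice carry a cluster of stefin A genes on chromosome 16. Stfa2l1, whose promoter is shown above, read 5.88, 6.87 and 6.70 on the TRIM33 arrays and 3.24, 2.48 and 2.78 on the WT arrays. Its rise was 3.65 (SE 0.284, adjusted p = 0.00624 in limma). Stfa1, 3 measured genes away, read 5.53, 6.44 and 6.32 against 3.65, 2.90 and 2.92, a rise of 2.94 (SE 0.283, adjusted p = 0.0187). Both were lowest on TRIM33 replicate 1 among the TRIM33 arrays, and without TRIM33 replicate 2 neither passed, with differences of 3.45 (adjusted p = 0.0574) and 2.77 (adjusted p = 0.164). The adjusted p of Stfa2l1 was 0.0694 without WT replicate 6. That of Stfa1 was 0.114, 0.178 and 0.150 without TRIM33 replicate 3, WT replicate 5 and WT replicate 6, and 0.0921 with the mix number as a block. Of the 9 measured genes of the stefin and cystatin list, 7 lay above 0 and these 2 passed. Among measured genes, Csta3 and Csta2 lie between Stfa2l1 and Stfa1, and Cstdc3 lies beside Stfa1. They are not in the list, and differed by 0.20, 0.09 and 0.17 with overlapping groups. Stfa3 differed by 0.59 with overlapping groups, Cstb, the stefin B gene, by 0.18 without overlap, and Cst3, the cystatin C gene, by 0.07. Of 15 cathepsin and legumain genes, not all of which encode cysteine proteases, 10 lay above 0 and 0 passed. Stefin A copies are alike enough that one probe may read several.

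Stfa2l1 was the 1 gene of 23279 (0.0043%) whose genotype difference itself differed between the 2 array sets. On the other 6 arrays it read 3.19, 3.44 and 2.81 with TRIM33 and 2.60, 3.11 and 2.83 with WT, a difference of 0.30. The interaction of genotype and set was 3.35 (SE 0.372, adjusted p = 0.0116 in limma). No gene passed this test without TRIM33 replicate 4 or 6 or without WT replicate 2, 3 or 6, and 981 genes had an unadjusted p below 0.05 with all arrays. Stfa1 had a difference of 2.54 on those arrays, which did not pass (adjusted p = 0.0764), and its own interaction did not pass either (adjusted p = 0.996). The sets were formed from values of all features, Stfa2l1 included. In the other set 3 genes passed for genotype (0.0129%), Apcdd1, Lyz1 and the histone gene H2bc18, and the first and second of these also passed here. H2bc18 differed by 2.07 in the 6 arrays described (adjusted p = 0.563, and 0.0174 with the mix number as a block), where it read 6.19, 6.40 and 7.14 against 3.77, 4.44 and 5.32.

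Cep83 and Klra17 also rose. Cep83, which encodes a protein of the distal appendages that anchor a centriole to the membrane, read 8.63, 8.61 and 8.24 against 6.78, 6.92 and 6.49. It rose by 1.76 (SE 0.162, adjusted p = 0.0178 in limma), and without TRIM33 replicate 2 by 1.71 with an adjusted p of 0.164. It missed the threshold as well without TRIM33 replicate 1, WT replicate 4, WT replicate 5 or WT replicate 6, at adjusted p from 0.0646 to 0.0864. Of 21 genes of the centriole appendages and centrosome, 15 lay above 0, and Cep83 was the 1 that passed. Klra17, which encodes a receptor of the Ly49 family, read 5.77, 5.80 and 6.77 against 3.62, 3.31 and 3.34. It rose by 2.69 (SE 0.260, adjusted p = 0.0187), and by 2.85 without TRIM33 replicate 2 (adjusted p = 0.114). Without WT replicate 4, 5 or 6 its adjusted p was 0.0864, 0.178 and 0.150. Of 29 Ly49 and other Klr genes, 12 lay above 0 and 1 passed. The lectin-like receptor genes Klre1 and Klri2 differed by -0.57 and -0.47 without passing.

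Most interferon-response genes had values above 0, and 1 of them, Oas1g, rose. Type I interferon binds a receptor on the cell surface and switches on antiviral genes, many of which carry the response element shown above. Oas1g, an oligoadenylate synthetase gene whose enzyme class makes the 2'-5' oligoadenylate that activates RNase L, read 8.57, 9.0 and 8.80 on the TRIM33 arrays and 7.16, 6.82 and 6.42 on the WT arrays. It rose by 1.99 (SE 0.202, adjusted p = 0.0234 in limma), and by 1.89 without TRIM33 replicate 2, where it did not pass (adjusted p = 0.195). It passed without WT replicate 4 (adjusted p = 0.0238), and missed the threshold without each of the others, at 0.0623 to 0.195, and with the mix number as a block, at 0.0723. It was the 1 member of 4 interferon lists (type I response, oligoadenylate synthetases, p200 sensors and GTPases), 65 genes in all, that passed. For 24 of the 65, the 3 TRIM33 arrays lay above the 3 WT arrays, beside 4.57% of all genes described.

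Of the 12 oligoadenylate synthetase genes measured, 11 lay above 0, and 8 did without TRIM33 replicate 2. 6 did not overlap between genotypes, all higher in TRIM33, beside 4.57% of all genes described. The median difference of the list was 0.33, beside -0.00958 over all genes described. Oasl1 read 7.13, 6.79 and 7.30 against 6.35, 6.16 and 6.43, a difference of 0.76 (SE 0.157, adjusted p = 0.758). Oas1a and Oas2 differed by 0.53 and 0.61, Oasl2 by 0.52 and Oas3 by 0.39, none past the test. Oas1c, Oas1d, Oas1f and Oas1h had values from -0.10 to 0.11. Oas1a, Oas2 and Oas3 are near neighbours of Oas1g on chromosome 5, and members of the Oas1 cluster are alike enough for a probe to read more than 1 of them. The mean of the list was 5.68, 5.86 and 5.89 on the TRIM33 arrays and 5.43, 5.37 and 5.33 on the WT arrays, so the genotypes did not overlap.

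Of 32 genes of the type I interferon response, 31 lay above 0, beside 47.4% of all genes described. Isg20 was the exception at -0.00284. The median was 0.26, and 13 did not overlap, all higher in TRIM33, beside 4.57% of all genes described, but 0 passed. Lgals3bp read 10.56, 10.19 and 10.52 against 9.78, 9.78 and 9.88, a difference of 0.61 (SE 0.133, adjusted p = 0.770). Rtp4 read 9.47, 9.31 and 9.55 against 8.91, 8.84 and 8.89, a difference of 0.56 (SE 0.115, adjusted p = 0.758). For both, each WT value lay below each TRIM33 value. Irf7, a master transcription factor of the response, read 10.34, 9.83 and 10.17 against 9.68, 9.52 and 9.74, a difference of 0.47 (SE 0.154). Isg15, a ubiquitin-like modifier gene whose promoter is shown above, read 7.12, 7.19 and 7.09 against 6.71, 6.52 and 6.89, a difference of 0.43 (SE 0.128), and Usp18, which removes that modifier from proteins, differed by 0.46. Ifit3, Irf9 and Ifi35 had differences of 0.05, 0.04 and 0.05, with overlapping groups. The median over the list was 0.35 without TRIM33 replicate 2 and 0.19 on the other 6 arrays.

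Of 10 genes of the p200 family, which sense DNA and RNA and include Aim2 of the inflammasome, 9 lay above 0, with a median of 0.36. Ifi213 read 8.76, 8.22 and 8.46 against 7.83, 7.35 and 7.79, a difference of 0.83 (SE 0.184, adjusted p = 0.819). Ifi204, Ifi209 and Mndal also had no overlap, with differences of 0.50, 0.47 and 0.38. That made 4 of the 10 higher without overlap, beside 4.57% of all genes described. Ifi205 had a value of -0.14 and read 8.31 on TRIM33 replicate 2 beside 9.15 to 10.02 on the others. Without TRIM33 replicate 2 all 10 lay above 0 and the median was 0.40. Of 11 interferon-inducible GTPase genes, which act on pathogen vacuoles, 6 lay above 0 and the median was 0.01, and Gbp2, Gbp5 and Igtp differed by 0.05, -0.01 and 0.01. The 10 genes of interferons and their receptors and kinases had differences from -0.11 to 0.10.

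The core of the response element was present both in genes that did and in genes that did not differ without overlap. It was found in 12 of 24 promoters of the type I list that had a sequence, in 4 of 8 oligoadenylate synthetase genes, in 7 of 9 p200 genes and in 7 of 7 GTPase genes. Over the 4 lists, the 30 genes with a match had a median difference of 0.30 and the 18 without one of 0.23, and 26 and 17 of them lay above 0. Higher without overlap were 9 of the 30 and 8 of the 18, beside 4.57% of all genes described. A match is a description of the letters and not a bound site. Among the genes that passed, 7 had a promoter in the table and 1, Oas1g, held the motif. GTCTAGAC, a SMAD-binding palindrome, was found in 0.269% of all promoters and in 0 of these 7.

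**Figure D4:**
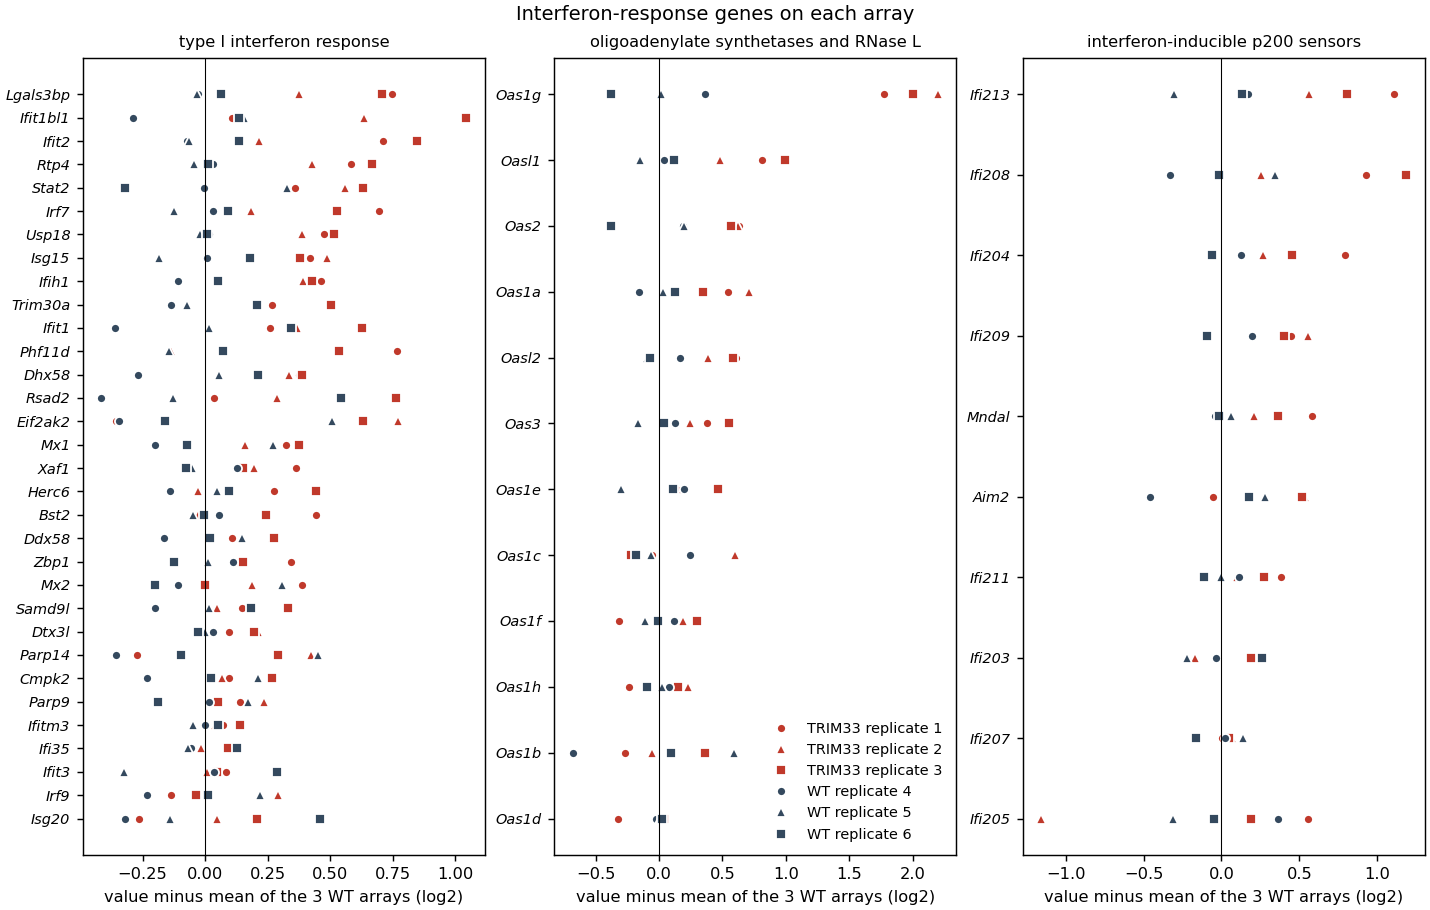
Values of the members of 3 interferon lists on each array, as the difference from the mean of the 3 WT arrays (log2, x axis, own range in each panel), TRIM33 in red and WT in dark blue, 1 symbol per array, genes ordered by the TRIM33 mean. TRIM33 symbols lie to the right for most genes, as in Oas1g at 1.99, while the mean differences of Isg20, Oas1d and Ifi205 are below 0.

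MHC class I processing genes, which load peptides for CD8 T cells and are in part induced by interferon, lay above 0 in 16 of 20 cases, with a median of 0.13. H2-T22, a non-classical class I gene, read 7.80, 7.87 and 7.33 against 7.0, 6.99 and 7.08, a difference of 0.65 (SE 0.157, adjusted p = 0.957). 6 members were higher without overlap and Calr was the 1 that was lower, beside 4.57% and 5.38% of all genes described. Of the 14 Ms4a genes, tetraspan-like membrane proteins of leukocytes, 10 lay above 0, and 5 were higher without overlap and 1 lower, beside the same shares. Ms4a7, a macrophage-associated member, read 7.52, 6.86 and 7.05 against 6.50, 6.43 and 6.34, a difference of 0.72 (SE 0.175, adjusted p = 0.957). Ms4a8a went the other way, at 9.41, 9.41 and 9.42 against 10.04, 9.74 and 9.66. None of these passed.

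No gene fell at an adjusted p below 0.05, and the largest negative values without overlap were below those of the rises in size. Eps8, which caps and bundles actin filaments, read 7.22, 7.33 and 5.75 against 8.39, 8.28 and 7.87, a difference of -1.41 (SE 0.388, adjusted p = 0.991). TRIM33 replicate 3 was the lowest of the 6. Hsph1, a heat-shock chaperone gene, read 5.65, 6.32 and 6.31 against 7.49, 7.06 and 7.21, a difference of -1.16 (SE 0.206, adjusted p = 0.458). Dhrs3, a retinaldehyde reductase gene, read 8.13, 8.02 and 8.09 against 9.37, 8.97 and 8.54, a difference of -0.88 (SE 0.197). Nat8f7, Ston2, Dapk1 and Btg3 had differences of -1.38, -1.04, -0.80 and -0.72.

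Chaperone genes leaned to negative values. Of 18 heat-shock genes, 13 lay below 0 and the median was -0.17, with Hspa1b at -1.21, Hspa1a at -1.0 and Stip1 at -0.40. WT replicate 4 was high for this list, with a mean of 8.04 beside 7.41 to 7.61 on the other 5 arrays, and Hspa1a read 9.40 on it beside 6.60 to 7.47. The list's median was -0.0288 without that array. Of 22 genes of the unfolded protein response, 17 lay below 0 and 5 above, whereas 47.4% of all genes described lay above 0. The median was -0.17, and Hspa5, the endoplasmic reticulum chaperone BiP, was at -0.27. Asns, Herpud1 and Dnajb11 were lower in TRIM33 without overlap, beside 5.38% of all genes described. None passed. The mean of this list was 7.88 to 8.00 on TRIM33 arrays and 8.02 to 8.14 on WT arrays, and the median was 0.09 on the other 6 arrays.

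TGF-beta and SMAD genes, the pathway of which TRIM33 is a regulator, had 21 of 32 values below 0 and none past the test; without TRIM33 replicate 2, 16 lay above 0. Among the inhibitory SMADs, Smad7 read 5.11, 5.81 and 6.02 against 6.26, 6.32 and 6.19, a difference of -0.61 (SE 0.220, adjusted p = 0.997), and Smad6 had one of -0.16. Of the receptor-regulated SMADs, Smad3 read 7.16, 6.99 and 7.17 against 7.84, 7.51 and 7.40, a difference of -0.48 (SE 0.144, adjusted p = 0.997), and Smad2 one of 0.03. The common partner Smad4 was at -0.08, the repressor Ski at -0.40, and the receptors Tgfbr1 and Tgfbr2 at 0.05 and -0.20. The ligand Tgfb1 was at -0.10. The median of the list was -0.0882, and -0.00491 without TRIM33 replicate 2.

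Several lists of monocyte identity and of other cells moved with TRIM33 replicate 2. The Ly6C-low list had 18 of 24 values below 0 and a median of -0.15, and 13 above 0 and a median of 0.06 without TRIM33 replicate 2. Ace, at 9.23, 8.25 and 9.27 against 9.38, 9.28 and 9.58, differed by -0.49 and by -0.16 without it. Treml4, at 9.35, 8.68 and 9.07 against 9.85, 9.44 and 9.63, differed by -0.60 (SE 0.189, adjusted p = 0.997) and by -0.43 without it. The 16 MHC class II presentation genes had a median of -0.06 and of 0.02 without it, and the 27 myeloid transcription factor genes -0.13 and 0.04. Ciita, of the class II list, read 6.48, 6.16 and 6.34 against 6.71, 7.03 and 6.83. It was the 1 member of the 16 lower without overlap, beside 5.38% of all genes described. Its difference was -0.53 (SE 0.138), and -0.45 without TRIM33 replicate 2. The 29 genes of mitosis and G2/M had a median of 0.20 and of 0.03 without it, and the 23 neutrophil genes 0.28 and 0.12. Ccnb2, the cyclin B2 gene, read 7.66 on TRIM33 replicate 2 and 3.73 to 5.44 on the others. The Ly6C-high list had 15 of 20 values above 0 and a median of 0.04 in all 6 arrays and 0.03 without it. None of the genes of these lists passed, other than Stfa2l1 in the neutrophil list.

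**Figure D5:**
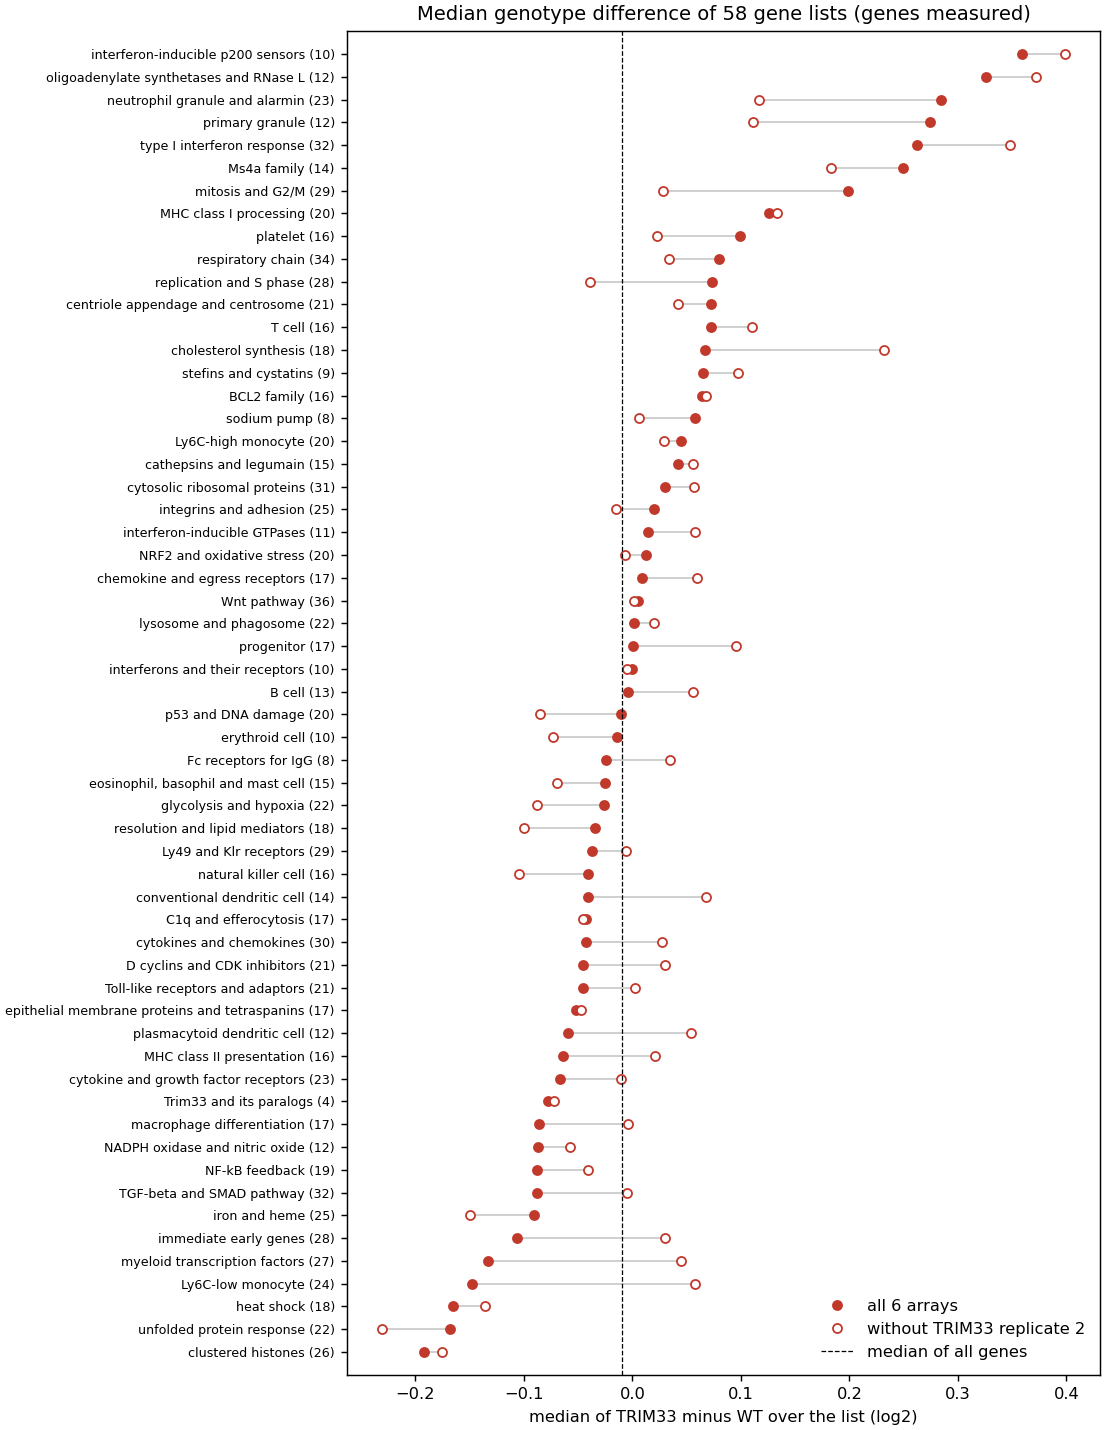
Median of TRIM33 minus WT (log2, x axis) over each of 58 gene lists (y axis, number of genes measured in brackets), for all 6 arrays (filled) and without TRIM33 replicate 2 (open), with the median of all genes as a dashed line. The p200, oligoadenylate synthetase and type I interferon lists lie at 0.36, 0.33 and 0.26 and stay to the right without that array, whereas the Ly6C-low list goes from -0.15 to 0.06.

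Respiratory chain genes, nuclear genes for mitochondrial electron transport and ATP synthesis, lay above 0 in 26 of 34 cases, beside 47.4% of all genes described, and in 22 without TRIM33 replicate 2. 8 were higher without overlap and 0 lower, beside 4.57% and 5.38% of all genes described. Their median was small, at 0.08 in the 6 arrays and 0.03 without TRIM33 replicate 2. Sdhb, a complex II subunit gene, read 10.42, 10.48 and 10.29 against 9.89 to 10.05, a difference of 0.42 (SE 0.115, adjusted p = 0.991). Atp1b3, a subunit gene of the sodium pump, read 11.13, 11.08 and 11.02 against 10.35, 10.28 and 10.28, a difference of 0.78 (SE 0.106, adjusted p = 0.134). It passed in a fit in which the spread was allowed to follow expression. Wdfy1, an endosomal adaptor gene of Toll-like receptor signalling, read 6.17, 6.20 and 6.43 against 5.25, 5.45 and 5.16, a difference of 0.98 (SE 0.132, adjusted p = 0.134). Colec12, a scavenger receptor gene, read 6.62, 5.74 and 4.88 against 4.28, 4.68 and 4.58, and Ugt1a1, a bilirubin-conjugating enzyme gene, 5.62, 5.57 and 4.53 against 4.42, 4.04 and 4.13. Their differences of 1.23 and 1.04 came without overlap but with a wide spread among the TRIM33 arrays, and did not pass. Outside the threshold, Hebp1 was followed by Atp1b3, Wdfy1, Trim33 and A930005H10Rik, all at an adjusted p of 0.134.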

How the data were processed

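Total RNA of sorted mouse blood monocytes was hybridised to 12 expression arrays, after amplification of 900 pg with NuGEN Ovation Pico per the labels' protocols. The deposited values are log2 intensities per feature, which the authors made with RMA and Partek per the submitters' processing notes. Versions and the chip definition were not given in the sources used here, nor which arrays were normalised together. RMA narrows differences of dim features, so a fold may be understated. The number of arrays limits the precision.

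Of 24479 features, 23281 had 1 gene symbol in GEO's platform annotation, 0 several and 1198 none. 23279 genes were tested, and 22324 were described after 955 on X or Y; RefSeq GRCm38.p6 gave chromosomes, gene order and promoters, and no chromosome for 124. The deposited log2 values were fitted with limma 3.58.1 in R 4.3.3 (lmFit and eBayes, two-sided, 3 arrays against 3, Benjamini-Hochberg over all 23279 genes, threshold 0.05); the test of the difference between the array sets used all 12. The code was tested on simulated data. The labels do not say that arrays are separate animals, so p-values reflect array-to-array spread that may be technical; what a mix pooled is not stated. Gene lists (58, with 1046 genes measured not on X or Y) carry no test, and 102 list genes were not analysed here. The arrays, the lists and the genes named were chosen with earlier results of these data known. Named were Trim33 and its paralogs, genes past the threshold, the 15 largest rises and falls without overlap whose higher mean exceeded the median of all genes, and in each list the genes past the threshold or, failing that, the 2 of smallest p and the 1 of largest difference; other list members were named after their values were seen. Alternatives were leaving out each array, a block, other scalings, filters and variance models, and thresholds. Python 3.11.15 and matplotlib 3.10.9 made counts and figures.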

Additional observations from a re-analysis of the deposited data

Results flagged for a closer look

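The genotype difference of Stfa2l1 was larger in the 6 arrays than in the other 6 by 3.35 (log2; adjusted p = 0.0116 in limma's interaction test), with 3 of 3 TRIM33 arrays above all 3 WT arrays in the first set and a difference of 0.30 in the second. Speer4cos had a difference of 0.903 in the 6 arrays and of -0.42 in the other 6, with every TRIM33 array on one side of every WT array in each set. Trbc2, a T cell receptor constant gene, likewise had 0.479 and -0.28. For both genes the opposite directions were seen without a test, and the interaction in the model over all genes did not pass (adjusted p = 0.996).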

How the results depend on the processing

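The count of 8 genes was 3 to 8 when 1 array was left out: 3 without TRIM33 replicate 2, 4 without WT replicate 5 and 3 without WT replicate 6. Apcdd1 passed in all 19 settings run, Lyz1 in 18, Emp1 in 17, Stfa2l1 in 16, and Cep83 and Oas1g in 12. A linear model without moderation called 1 gene (Apcdd1), a fit of all 12 arrays with a shared spread 13 (7 of the 8, without Emp1), and a threshold of 0.01 gave 4. In that fit of 12 arrays Trim33 passed, at -0.79 (adjusted p = 0.0137). The interaction count of 1 was 0 to 2 when 1 array was left out (2 without TRIM33 replicate 3). With all arrays, 981 genes had an unadjusted p under 0.05 in limma on all features. The count was 0 among features above the median mean. Stfa2l1 has a mean over the 12 arrays below that median, so this setting did not test it. Scaling by quantiles or medians kept the 8.

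With the mix number as a replicate block 7 genes passed, 6 of them shared, without Oas1g and Stfa1 and with H2bc18 added. Trim33 was at -0.79. Deviations of the mix pairs correlated at 0.138 and 0.217, those of the arrays that are not mixes, which share no number, at 0.300, and crossed mix pairs at -0.027 and 0.065. With 2 numbered pairs the numbers were not taken as a pairing, which leaves these values as a hint from the data. At an unadjusted p under 0.05 the block gave 1457 genes, against 1064 without it.

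The 142 named genes gave 2532 combinations of a gene and an alternative setting. In 23 of these combinations the sign reversed, some of them for the same gene, and all were of genes that did not pass. Leaving out 1 array moved Trim24 over -0.14 to 0.14, Trim66 over -0.14 to 0.33, Ifng over -0.024 to 0.18, Cxcl2 over -0.26 to 3.26, Ptgs2 over -0.0040 to 1.42, Egr2 over -1.14 to 0.02, Ccnb2 over -0.00089 to 1.96 and Cdkn1a over -0.011 to 0.80. It moved Bcl2a1a over -0.10 to 0.85, Igkc over -0.32 to 1.03, Car2 over -1.09 to 0.37 and Cd209d over -1.14 to 0.0082. In the mixes alone Trim24 was -0.18, Ifng -0.020, Bik -0.0016, Bcl2a1a -0.26 and Car2 0.077. Trim24 was -0.011 with median centring and -0.033 with array weights. Of 58 list medians, 22 kept 1 sign in all settings. Leaving out TRIM33 replicate 2 changed the sign of 14, and leaving out any other single array that of 8 to 12. The type I interferon median ranged from 0.209 to 0.348 and the oligoadenylate synthetase median from 0.291 to 0.529. The cause of these changes was not tested.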

Other observations

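Clustered histone genes, which supply chromatin during DNA replication, had 22 of 26 values below 0 and a median of -0.19 (10 above 0 and -0.175 without TRIM33 replicate 2), in contrast with H2bc18 at 2.07, and a median of 0.32 on the other 6 arrays. None passed. Iron and haem genes had 19 of 25 values below 0, with Flvcr1, a haem exporter gene, at -0.39 and Hebp1 at 2.61. Cholesterol synthesis genes had 15 of 18 values above 0, with a median of 0.07 and of 0.23 without TRIM33 replicate 2. Immediate early genes had 22 of 28 values below 0 and a median of -0.106 in the 6 arrays, whereas 17 lay above 0 with a median of 0.0304 without TRIM33 replicate 2. Their mean was 8.29 on TRIM33 replicate 1 and 8.27 on WT replicate 4 beside 7.33 to 7.87 on the other 4 arrays. In the cytosolic ribosomal protein list, Rps24 had a difference of 0.44 and Rps2 one of -0.69, without overlap in either, and neither passed.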
